A study of Zeugodacus cucurbitae with 52 samples.

Results

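Larval serum proteins and fat-body protein 1 are the storage proteins, and the storage protein receptor, of the larval and pupal fat body. Their transcripts were followed through the life of the melon fly, Zeugodacus cucurbitae. They are all genes whose description contains larval serum protein or fat-body protein 1, a group proposed with earlier results of these data known, and there were 7 of the 18241 genes in the table. Of these, 4 carry the description larval serum protein 1 beta chain-like (gene341, gene342, gene343 and gene890, here LSP1-like), 1 is larval serum protein 2 (gene6969, LSP2), 1 is fat-body protein 1 (gene12529, FBP1) and 1 is fat-body protein 1-like (gene12530, FBP1-like). Every one of the 7 passed the filter on low values. The names come from the annotation and rest on similarity to other insects.

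Larval serum proteins belong to the hexamerins, large proteins that the fat body of a feeding larva secretes into the haemolymph, where they become a store of amino acids. Before and during pupariation the fat body takes them back up and keeps them in protein granules, from which they are used while adult tissues are built. In Drosophila melanogaster the product of Fbp1 is the receptor by which the fat body takes up larval serum protein 1, and its gene is switched on by the steroid hormone ecdysone at the end of larval life. The Drosophila gene for LSP2 is transcribed again in the adult.

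The 52 libraries came from whole flies of a reared colony, 4 from each of 13 stages. A library was made from a pool of 100 eggs, of 100 larvae aged 1 d (instar 1), of 20 larvae aged 3 d (instar 2), of 10 larvae aged 7 d (instar 3), of 3 pupae aged 1, 5 or 9 d, or of 3 virgin females or males aged 1, 5 or 9 d. The pool is the unit of replication, and a value is the mean of several animals. Values are in TPM, an abundance per transcript, which are divided by gene length and add up to 1000000 in each library, so that levels of different genes can be set side by side within a library. Read depth cannot be read from TPM, and no counting interval is given. Stages were compared with limma on log2(TPM + 1) over 17097 genes, those that exceeded 0.1 TPM in 4 or more libraries. A call, higher or lower, needs an adjusted p under 0.05 (Benjamini-Hochberg over all genes tested) with a log2 fold change beyond 2 in size, and fold changes on this scale understate the change of genes near 0. In whole bodies, more cells of a type and more RNA per cell cannot be told apart.

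Genes used as markers of fat body, other than these 7, were detected at every stage, in eggs at a sum of 240 to 278 TPM. Whether they are specific to fat body was not tested. The 4 genes used as fat body markers (lipid storage droplet proteins and apolipophorins) summed to 626 to 729 TPM in 7-d-old larvae and, in pupae, to 1323 to 1486 TPM on day 1 and 780 to 838 TPM on day 5, and none of them stood at 0 in any stage. Between 7-d-old larvae and 1-d-old pupae the sum over 79 midgut genes (trypsins and peritrophins) went from 11823–17339 to 699–915 TPM, and that over 12 muscle genes from 14246–16304 to 970–1064 TPM. The sum over 12 haemocyte genes went from 134–166 to 390–413 TPM. The part of these shifts in the results for storage proteins was not tested.

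The 7 genes together held their largest share of message in the mature larva. They took 0.011% ± 0.0109 of all TPM in larvae of day 3 and 7.40% ± 0.901 on day 7 (SD, n = 4; 6.35% to 8.30% in single libraries). In pupae the share was 3.11% ± 0.202 on day 1, 1.69% ± 0.117 on day 5 and 0.897% ± 0.0796 on day 9. Newly emerged adults (day 1) had 0.0456% in females and 0.0497% in males, and by day 9 it was 0.474% and 0.468%. The make-up of that share changed with the stage. In 7-d-old larvae the LSP1-like genes gene341, gene342 and gene343 made up 6.18 of the 7.40 percentage points, in 1-d-old pupae FBP1 and FBP1-like made up 2.74 of the 3.11, and in 9-d-old females LSP2 alone made up 0.472 of the 0.474.

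**Figure D1:**
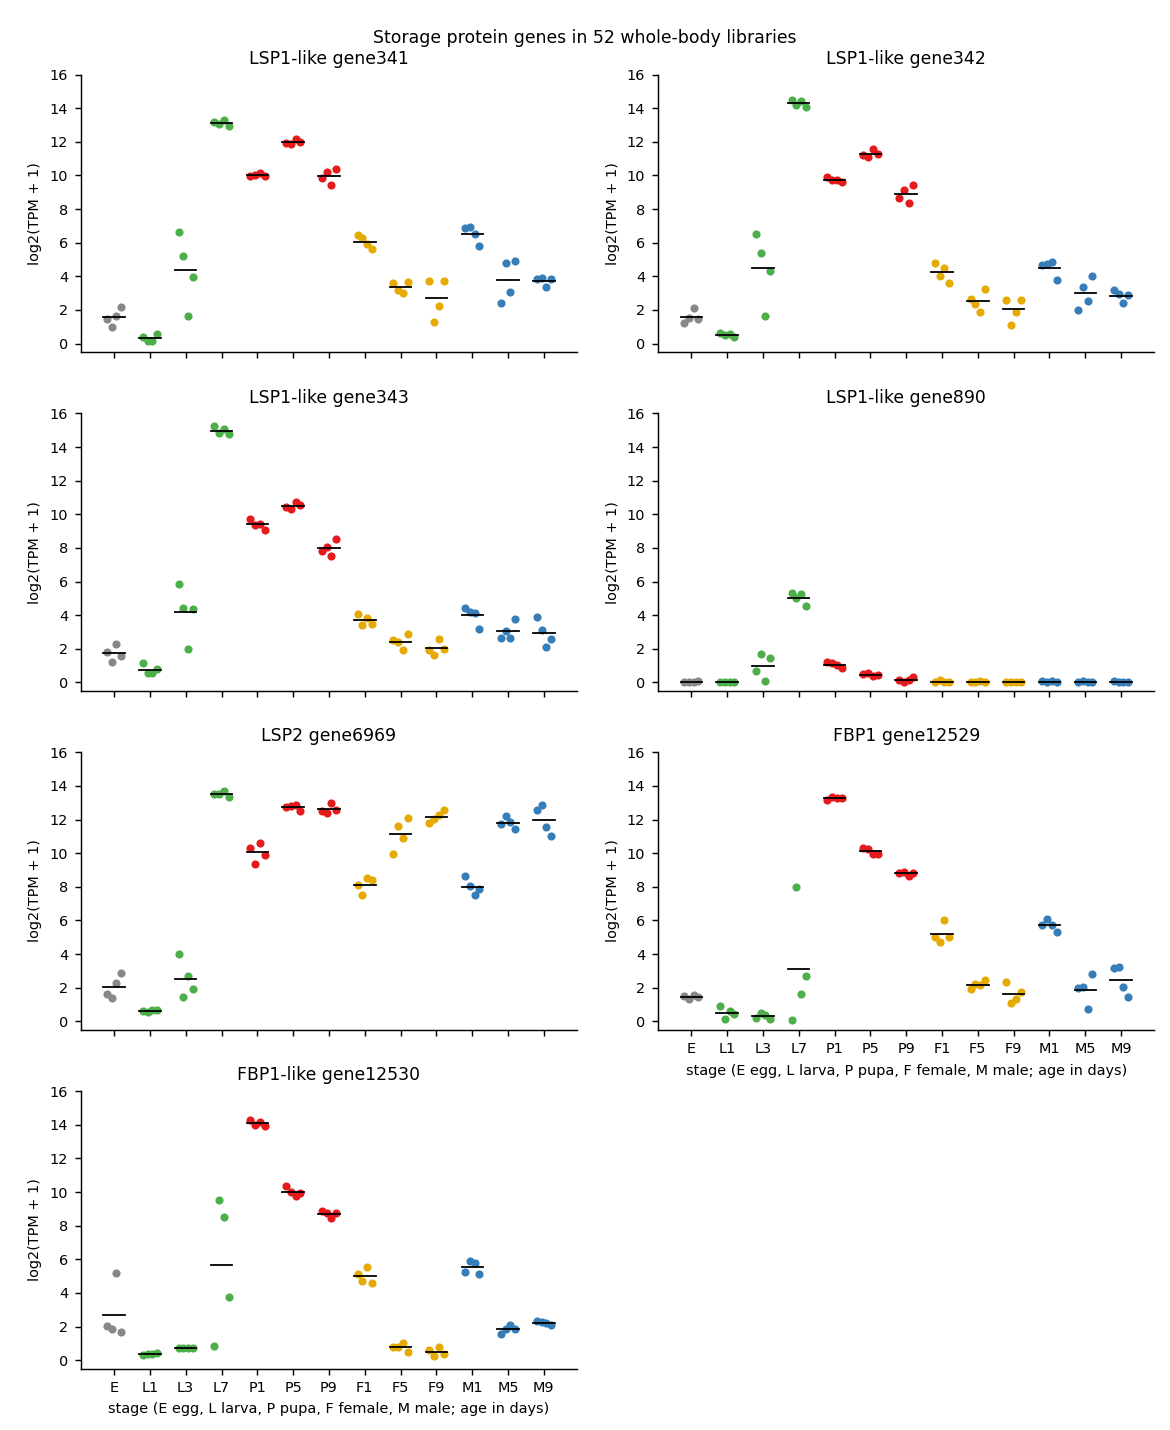
Level of each of the 7 storage protein genes, as log2(TPM + 1), in 52 whole-body libraries (points, 4 per stage) with the mean of each stage on that scale (bars). The LSP1-like genes and LSP2 peak in 7-d-old larvae and FBP1 and FBP1-like in 1-d-old pupae (means of 9767 and 17629 TPM), and LSP2 alone stands at stage means of 2610 to 4723 TPM in 5- and 9-d-old adults.

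In eggs all 7 genes were low, at stage means between 0.0175 and 10.9 TPM. FBP1-like had the highest of these means, and it came from 1 library, since replicates 1 to 4 of the egg held 3.08, 2.68, 35.66 and 2.2 TPM. The other 3 libraries lay within 1 TPM of each other. From the egg to the 1-d-old larva, 1 of the 7 genes was called lower, beside 4.45% of all genes tested. It was FBP1-like (log2 fold change -2.33, SE 0.86, limma adjusted p = 0.018). Without egg replicate 3 the difference was -1.50 (adjusted p = 0.15) and the call was lost. At an unadjusted p under 0.05 in limma, 5 of the 7 genes were lower, and for 6 the libraries of the 2 stages did not overlap. LSP2 was at -1.42 (SE 0.40, adjusted p = 0.00235), short of the fold threshold. In 1-d-old larvae the 6 genes other than FBP1-like had means of 0 to 0.718 TPM, and gene890 was listed at 0 in all 4 libraries. By the run table of the study, the clean reads of all egg libraries were shorter than those of all 1-d-old larval libraries. Read class and stage cannot be told apart in this step.

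In the fit on log2(TPM + 1), genes of the LSP1-like group were the first to be called higher. From 1-d-old to 3-d-old larvae 3 of the 7 genes were called higher, beside 0.942% of all genes tested, and they were gene341, gene342 and gene343. In replicates 1 to 4 of the 3-d-old larva gene342 stood at 91.08, 41, 2.1 and 18.87 TPM, against 0.33 to 0.55 TPM in the 1-d-old larva (log2 fold change 3.93, SE 0.51, adjusted p = 2.97e-08). The libraries of the 2 stages did not overlap, but those of the older stage spanned more than an order of magnitude. The order of the libraries was the same for gene341 (98.13, 36.43, 2.17 and 14.51 TPM) and for gene343 (57.61, 20.92, 2.99 and 19.41 TPM). Replicate 3, the lowest for these 3 genes, is 1 of 6 libraries in which few reads mapped by the run table of the study. All 3 stayed called when those libraries were left out. LSP2, the other main storage protein, stood at 15.2, 1.68, 5.44 and 2.75 TPM, so that replicate 2 was lowest for it, and its change of 1.90 (SE 0.40, adjusted p = 0.000138) did not reach the fold threshold. The change of gene890, 0.98 (SE 0.17, adjusted p = 5.9e-06), did not reach it either. With a pseudocount of 0.1, 5 of the 7 genes were called higher in this step. With libraries scaled by median-of-ratios size factors it was 4.

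From 3-d-old to 7-d-old larvae all 7 genes were called higher, beside 1.36% of all genes tested. The median change of the 7 was 8.76 on the log2 scale, while the median over all genes was -0.01. LSP2 showed the change of rank 2 among the 17097 genes, gene343 of rank 3, gene342 of rank 6 and gene341 of rank 9. Only the pair FBP1 and FBP1-like had libraries that stood far apart from each other within the 7-d-old larvae, and they are described separately.

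Among the LSP1-like genes gene343 was the most abundant. Its 4 libraries of the 7-d-old larva held 38290.2, 29515, 33763 and 28128 TPM, a mean of 32424 ± 4587, and it ranked 1 among all genes in 3 libraries and 2 in the other. No library of the 3-d-old larva held more than 57.61 TPM, and the log2 fold change was 10.81 (SE 0.42, adjusted p = 9.86e-24). For gene342 the libraries held 23408, 18592, 22207 and 17310.1 TPM (log2 fold change 9.84, SE 0.51, adjusted p = 2.71e-19). For gene341, whose gene model is 887 nt long against 3115 nt for gene342 and 2880 nt for gene343, they held 9393, 8667, 10229 and 7752 TPM (8.76, SE 0.56, adjusted p = 2.43e-16). All 3 genes were lowest in replicate 4, and their highest library exceeded the lowest by 1.32 to 1.36 times. These genes share a description, and how reads common to near-identical copies were divided among them is not known, so the level of each single gene is less certain than their sum.

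The fourth LSP1-like gene, gene890, also peaked in the 7-d-old larva, at a far lower level. It reached 39.35, 30.85, 37.66 and 22.08 TPM in the 7-d-old larva, from 0.61, 2.28, 0.05 and 1.75 TPM in the 3-d-old larva (log2 fold change 4.05, SE 0.17, adjusted p = 1.3e-22). The libraries of the stages did not overlap. Its highest mean outside the larva was 1.10 TPM in 1-d-old pupae, and every adult library held at most 0.09 TPM. From day 1 to day 5 of the pupa gene890 went down, to a mean of 0.383 TPM (-0.59, SE 0.17, adjusted p = 0.00215). Gene341, gene342 and gene343 went up over that step.

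LSP2 held 11893, 11933, 13179 and 10279 TPM in the 7-d-old larva, from a mean of 6.27 TPM on day 3 (log2 fold change 11.02, SE 0.40, adjusted p = 1.45e-24). Its highest library exceeded its lowest by 1.28 times, and as for the LSP1-like genes replicate 4 was the lowest.

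FBP1 and FBP1-like, the genes named for the storage protein receptor, differed by orders of magnitude between the pools of 7-d-old larvae. For FBP1-like replicates 1 to 4 held 0.77, 727.4, 372.02 and 12.78 TPM, against 0.63 to 0.67 TPM in 3-d-old larvae (log2 fold change 4.94, SE 0.86, adjusted p = 1.1e-05). For FBP1 they held 0.04, 251.35, 2.08 and 5.53 TPM, against 0.12 to 0.42 TPM (2.78, SE 0.72, adjusted p = 0.00237). Replicate 2 was the highest for both genes and replicate 1 the lowest, and for FBP1 the libraries of the 2 stages overlapped. With limma fitted on the libraries of these 2 stages alone neither gene was called (adjusted p = 0.244 for FBP1 and 0.0976 for FBP1-like). Without replicate 2 the change of FBP1 was 1.15 (adjusted p = 0.0277) and below the fold threshold, while FBP1-like stayed called at 3.66 (adjusted p = 0.000229).

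Other genes differed between the same pools. A broad-complex gene (gene6455), 1 of 6 so described in the table and named for ecdysone-induced transcription factors, held 9.62, 43.21, 19.43 and 8.49 TPM, and replicate 2 was again the highest and replicate 3 the next. The CTLA-2-alpha gene (gene4685), named for a mammalian inhibitor of cathepsin-like proteases, held 0.26, 425.08, 27.35 and 2.55 TPM. Replicate 2 held the single highest value for 16 of the 22 ecdysone genes with such a value and for all 9 genes of tissue remodelling. It also held it for 53.0% of the 14833 tested genes with such a value. This library was thus high for many genes outside these lists. The broad-complex gene of highest level (gene4395) did not follow, at 706, 644, 624 and 875 TPM. Reads of replicates 1 and 2 were longer than those of replicates 3 and 4 by the run table of the study, and the libraries of each read class alone left FBP1-like called in both and FBP1 called in the longer class (3.71) but not in the shorter (1.85). What the pools differed in was not tested.

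**Figure D2:**
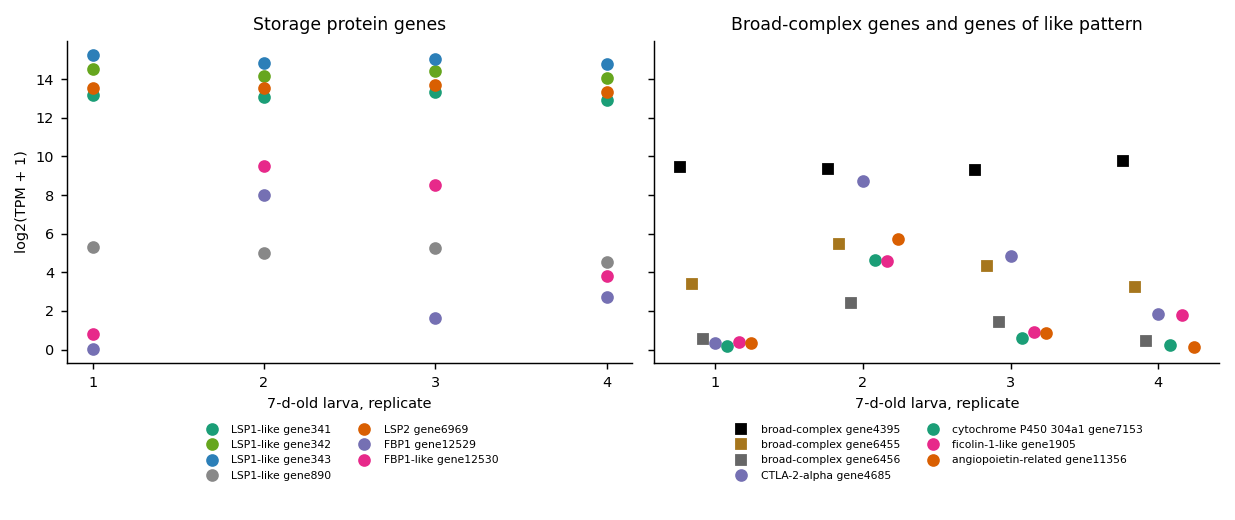
log2(TPM + 1) in the 4 libraries of 7-d-old larvae, for the 7 storage protein genes (left) and for 3 broad-complex genes (squares) and 4 genes patterned like FBP1 (circles, right); points are shifted sideways on the right for legibility, and replicates have no order. LSP1-like genes and LSP2 vary little between the pools, whereas FBP1-like runs from 0.77 to 727.4 TPM and CTLA-2-alpha from 0.26 to 425.08 TPM.

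At pupariation the genes parted. From 7-d-old larvae to 1-d-old pupae 2 of the 7 were called higher, beside 12.2% of all genes tested, and 5 were called lower, beside 4.95% of all genes. The 2 higher ones were FBP1 and FBP1-like, and the 5 lower ones were the 4 LSP1-like genes and LSP2. In this comparison the median over all genes was 0.67, and it was 0.03 when libraries were scaled by median-of-ratios size factors. The calls higher made up 71.2% of all calls with the deposited TPM and 30.2% with that scaling. The 7 genes kept their calls and directions under both.

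FBP1-like was the more abundant of the receptor pair, at 19854, 16370.4, 18472 and 15821 TPM in 1-d-old pupae. The log2 fold change was 8.43 (SE 0.86, adjusted p = 7.4e-12). FBP1 held 9149, 10271, 9844 and 9806 TPM, a log2 fold change of 10.16 (SE 0.72, adjusted p = 1.59e-16). No library of the larva came near these values, the highest being 727.4 TPM for FBP1-like and 251.35 TPM for FBP1. Among all genes FBP1-like ranked 2 or 3 and FBP1 ranked 7 to 10 in the 4 pupal libraries.

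Of the LSP1-like genes, gene343 fell furthest, to 856, 669, 680.5 and 528 TPM (log2 fold change -5.58, SE 0.42, adjusted p = 8.85e-16). The fall was smaller for gene342 (949, 851, 859 and 791 TPM; -4.55, SE 0.51, adjusted p = 1.17e-10) and smaller again for gene341 (998, 1029, 1112 and 1010.1 TPM; -3.11, SE 0.56, adjusted p = 3.79e-06). LSP2 fell to 1261, 659, 1567 and 953 TPM (-3.48, SE 0.40, adjusted p = 2.47e-10). For gene890 the change was -3.97 (SE 0.17, adjusted p = 6.45e-24). In none of these 5 genes did a library of the pupa reach the lowest library of the 7-d-old larva.

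**Figure D3:**
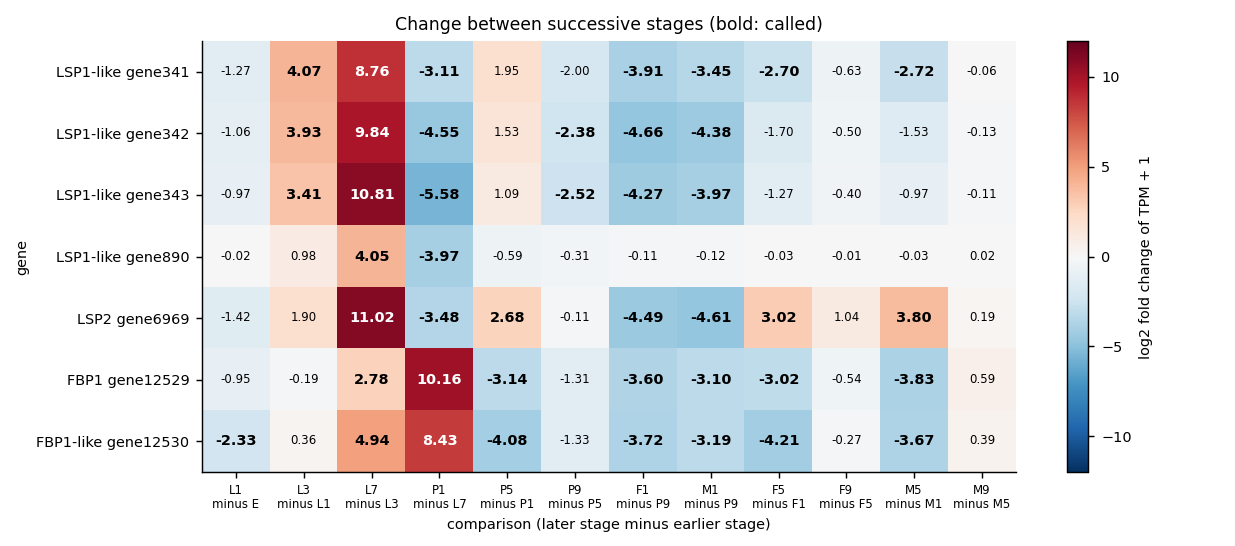
log2 fold change on the log2(TPM + 1) scale of each of the 7 genes in 12 comparisons of successive stages (columns), with the value in each cell, colour for its size and bold type for calls. From 3-d-old to 7-d-old larvae all 7 are above 2, from 7-d-old larvae to 1-d-old pupae FBP1 (10.16) and FBP1-like (8.43) are above 0 and the other 5 below, and LSP2 is the only one above 2 from 1- to 5-d-old adults of either sex (3.02 and 3.80).

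During the pupal stage, the message for LSP2 was higher on day 5 than on day 1 and those of the receptor pair were lower. From day 1 to day 5 of the pupa 1 gene was called higher, beside 7.17% of all genes tested, and 2 were called lower, beside 4.98%. LSP2 was the one called higher, at 6913, 7021, 7369 and 5801 TPM (log2 fold change 2.68, SE 0.40, adjusted p = 1.79e-07), and each of its libraries lay above those of day 1. FBP1 fell to 1250.5, 1201, 1000.3 and 997 TPM (-3.14, SE 0.72, adjusted p = 0.000203) and FBP1-like to 1328, 1044, 857 and 983 TPM (-4.08, SE 0.86, adjusted p = 5.97e-05).

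Among the LSP1-like genes gene341, gene342 and gene343 missed the fold threshold on day 5, although their libraries all lay above those of day 1. Gene341 held 3834, 3664, 4543 and 3985 TPM on day 5, and its difference from day 1 was 1.95 (SE 0.56, adjusted p = 0.00237). For gene342 the difference was 1.53 (SE 0.51, adjusted p = 0.00865) and for gene343 it was 1.09 (SE 0.42, adjusted p = 0.0214). With median-of-ratios scaling 3 of the 7 genes were called higher rather than 1.

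From day 5 to day 9 of the pupa 2 genes were called lower, beside 2.84% of all genes tested. They were gene342, at 402, 567, 324 and 685 TPM on day 9 (log2 fold change -2.38, SE 0.51, adjusted p = 0.000123), and gene343, at 225, 259.7, 180.2 and 366 TPM (-2.52, SE 0.42, adjusted p = 2.03e-06). Gene341, at -1.996 (SE 0.56, adjusted p = 0.00252), lay just inside the fold threshold and was not called. LSP2 stood at 5808, 5434, 7957 and 6115 TPM on day 9, and its difference from day 5 was -0.11, with a 95% interval from -0.92 to 0.70. Replicates 1, 3 and 4 of the 9-d-old pupa are among the 6 libraries in which few reads mapped.

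The proportions of gene341, gene342 and gene343 among themselves differed between the 7-d-old larva and the pupa. Of their summed TPM, gene343 took 52.4% ± 1.22 in 7-d-old larvae and, in pupae, 26.3% ± 3.24 on day 1, 18.2% ± 0.355 on day 5 and 14.5% ± 1.14 on day 9 (SD, n = 4). Gene341 took 14.6% ± 1.02, 40.3% ± 3.37, 50.5% ± 1.03 and 58.0% ± 1.74 at those stages, and in adults of day 1 it took 68.5% ± 5.27 in females and 71.1% ± 2.94 in males. In 3-d-old larvae gene341 took 33.5% ± 5.80 and gene343 30.6% ± 9.83, and in 9-d-old females, where all 3 genes were low, the shares were 46.1% ± 17.2 and 29.4% ± 17.6. Gene342 had means between 27.5% and 33.4% from the 7-d-old larva to the 9-d-old pupa. The ranges of gene341 and of gene343 over 4 libraries did not overlap between any of these 4 stages, from the 7-d-old larva to the 9-d-old pupa. The ratio of gene341 to gene343 was 0.279 ± 0.0254 before pupariation (7-d-old larvae) and 2.78 ± 0.105 on day 5 of the pupa. A ratio within a library does not depend on the scaling between libraries, and these proportions are given as a description, without a test. Whether the short model of gene341 covers a whole transcript, and whether reads of one gene were assigned to another, was not tested.

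**Figure D4:**
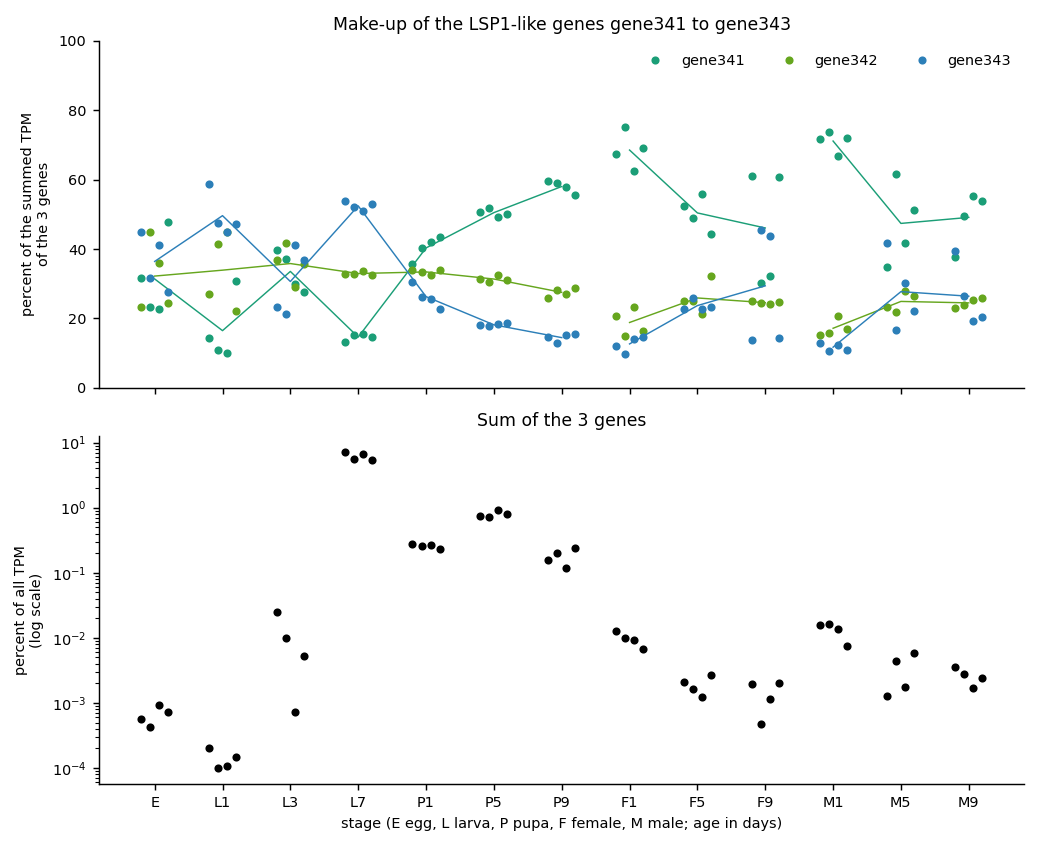
Share of the summed TPM of gene341, gene342 and gene343 taken by each gene in every library, by stage (above, percent; lines join stage means and break between pupae, females and males), and the sum of the 3 genes as a percent of all TPM (below, logarithmic axis). The share of gene343 runs from 52.4% in 7-d-old larvae to 14.5% in 9-d-old pupae and that of gene341 from 14.6% to 58.0%.

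FBP1 and FBP1-like also changed in proportion. Their ratio (FBP1-like over FBP1) in pupae was 1.81 ± 0.27 on day 1, 0.943 ± 0.098 on day 5 and 0.932 ± 0.0749 on day 9. The range on day 1 (1.59 to 2.17) lay above that on day 5 (0.857 to 1.06).

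At emergence nearly all of these messages went down. From the 9-d-old pupa to the 1-d-old adult 6 of the 7 genes were called lower in females, beside 6.14% of all genes tested, and 6 of 7 in males, beside 2.42%. The 6 were the same in both sexes, namely all but gene890, which was already at 0.03 to 0.23 TPM in the 9-d-old pupa. Both comparisons share the 4 pupal libraries. Over the same step the summed midgut markers went from 698–810.3 TPM in the pupa to 5027–5487 in females and 3912–5117 in males, the muscle markers from 38189.6–42280.4 to 28674–29696 and 25632–26367 (all TPM), the fat body markers from 419–544 to 637–683 and 589.6–682 TPM, and the haemocyte markers from 195–252 to 149–165 and 168–182 TPM. Their part in the result was not tested. LSP2 stood at 277, 178, 359 and 336 TPM in 1-d-old females (log2 fold change -4.49, SE 0.40, adjusted p = 1.02e-12) and at 391, 262, 181 and 228 TPM in 1-d-old males (-4.61, SE 0.40, adjusted p = 6.36e-13). The changes of the other 5 ranged from -3.60 for FBP1 to -4.66 for gene342 in females and from -3.10 for FBP1 to -4.38 for gene342 in males. Without the 6 libraries in which few reads mapped, which leaves 1 library of the 9-d-old pupa and assumes that it varies like the other stages, FBP1-like in males was not called (-3.23, adjusted p = 0.0884).

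In adults LSP2 rose again while gene341, FBP1 and FBP1-like fell further. By the run table of the study, the clean reads of all 1-d-old adult libraries were shorter than those of all older adult libraries. Read class and age cannot be told apart in the step from day 1 to day 5. From day 1 to day 5, LSP2 was the 1 gene called higher in females, beside 6.77% of all genes tested, and in males, beside 1.87%. Gene341, FBP1 and FBP1-like were called lower in both sexes, beside 1.04% of all genes in females and 0.708% in males. Gene342 and gene343 were also lower in females, at -1.70 (adjusted p = 0.00449) and -1.27 (adjusted p = 0.00947), but short of the fold threshold. In males they were at -1.53 (adjusted p = 0.0218) and -0.97 (adjusted p = 0.0843), and for both genes the libraries of the 2 days overlapped. The summed muscle markers went over this step from 28674–29696 to 6303–8657 TPM in females and from 25632–26367 to 9579.9–11818 TPM in males, the fat body markers from the values above to 811–1182 and 863–999 TPM, the midgut markers to 4618–4935 and 5373–6292 TPM and the haemocyte markers to 158–164 and 206–251 TPM. Their part in the result was not tested.

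On day 5 LSP2 stood at 973, 3101, 1922 and 4444 TPM in females (log2 fold change 3.02, SE 0.40, adjusted p = 1.51e-08) and at 3414, 4655, 3719 and 2745 TPM in males (3.80, SE 0.40, adjusted p = 3.1e-10). The 4 female pools spanned a wider range than the male pools on this day, and all 8 lay above every library of day 1. On day 9 it held 3577, 4202, 5028 and 6084 TPM in females and 6049.8, 7508, 2972 and 2044 TPM in males, and here the wider range was in the males. The lowest of these male libraries, replicate 4, is among the 6 libraries in which few reads mapped. From day 5 to day 9 limma called 0 of the 7 genes in females (0.766% of all genes were called in either direction) and 0 in males (0.322%). At an unadjusted p under 0.05 there was 1 gene in females, LSP2 at 1.04 (95% interval 0.23 to 1.85, adjusted p = 0.0356), and 0 in males.

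The other genes were low on these days. Gene341 in females fell to 6.9–11.9 TPM on day 5, from 47.3–87.1 TPM on day 1 (log2 fold change -2.70, SE 0.56, adjusted p = 6.09e-05). FBP1-like fell from 23–44.7 to 0.39–0.99 TPM in females (-4.21, SE 0.86, adjusted p = 4.53e-05) and from 33.9–58.7 to 1.9–3.22 TPM in males (-3.67, SE 0.86, adjusted p = 0.00086). In no library of a 5- or 9-d-old adult did FBP1 exceed 8.25 TPM.

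None of the 7 genes was called between the sexes by limma, with 4.64% of all genes called in either direction on day 1, 10.7% on day 5 and 16.9% on day 9. At an unadjusted p under 0.05 the counts were 0, 0 and 1. For LSP2 the difference, females minus males, was 0.12 on day 1 (95% interval -0.69 to 0.94), -0.66 on day 5 (-1.48 to 0.15) and 0.18 on day 9 (-0.63 to 1.00). FBP1-like stood at 0.39 to 0.99 TPM in females and 1.9 to 3.22 TPM in males on day 5, and at 0.18 to 0.71 and 3.21 to 4.08 TPM on day 9. The sexes did not overlap on either day, but the difference did not pass the test (day 5, -1.07, adjusted p = 0.308; day 9, -1.72, 95% interval -3.46 to 0.01, adjusted p = 0.0731). The SE of FBP1-like in this fit (0.86) is shared by all stages, among them the 7-d-old larvae, whose pools differed widely. It does not measure the spread within these adult groups, so the test leaves a sex difference of FBP1-like undecided. With a pseudocount of 0.1, 1 of the 7 genes was called lower in 9-d-old females than in males. The gene with the unadjusted p under 0.05 on day 9 was gene343 (-0.89, adjusted p = 0.0569). The change with age was also compared between the sexes directly. From day 1 to day 5 limma called 0 of the 7 genes (7.16% of all genes in either direction) and from day 5 to day 9 it called 0 (0.597%), and the counts at an unadjusted p under 0.05 were 0 and 0. The intervals for LSP2 ran from -1.94 to 0.36 and from -0.30 to 2.00.

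**Figure D5:**
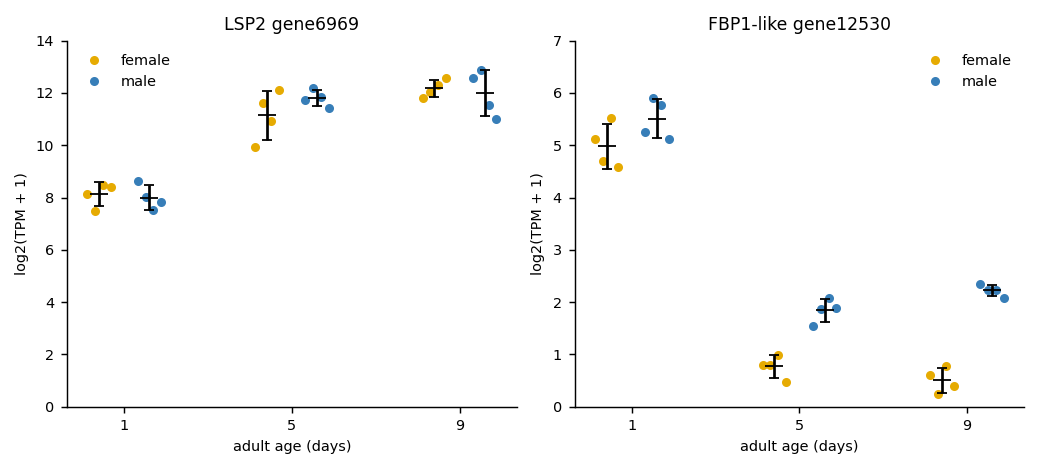
log2(TPM + 1) of LSP2 (left) and FBP1-like (right) in each library of females and males aged 1, 5 and 9 d, with the mean and SD over 4 libraries (bars). LSP2 lies at 178 to 391 TPM on day 1 and at 973 to 7508 TPM on days 5 and 9, and FBP1-like on days 5 and 9 lies at 0.18 to 0.99 TPM in females and 1.9 to 4.08 TPM in males.

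The order of the 13 stages differed between the genes. For gene341, gene342 and gene343 the 7-d-old larva was followed by the 5-d-old pupa, and for LSP2 by the 5- and 9-d-old pupae, then the 9-d-old adults. For FBP1 the 1-d-old pupa was followed by the 5-d-old and the 9-d-old pupa, without overlap between them. Of the 12 pairs of stages next to each other in the order of means, the libraries of the pair overlapped in 7 pairs for FBP1, gene342 and gene343, in 8 for gene341 and LSP2, and in 9 for FBP1-like and gene890. For LSP2 6 of the 8 overlaps were among 5- and 9-d-old pupae, 5- and 9-d-old adults and 1-d-old pupae, at means of 1109.9 to 6776 TPM.

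Across the 52 libraries the 7 genes fell into sets by the correlation of log2(TPM + 1). The r values are descriptions, since libraries of a stage share that stage and a few stages carry most of the range. Gene342 and gene343 had r = 0.992, gene341 had r = 0.978 and 0.953 with them, and FBP1 and FBP1-like had r = 0.951. LSP2 had r = 0.52 to 0.59 with gene341, gene342 and gene343. FBP1 and FBP1-like had 0.57 to 0.77 with those genes.

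By the rule of the 5 other genes with the highest r, the genes most like FBP1 were a probable cytochrome P450 (gene7153, r = 0.981), an oxidative enzyme, ficolin-1-like (gene1905, 0.978) and angiopoietin-related protein 1-like (gene11356, 0.963), which share the fibrinogen-like domain by their names' families, fibrinogen-like protein A (gene3004, 0.958) and CTLA-2-alpha (gene4685, 0.958). CTLA-2-alpha, the cytochrome and gene11356 were also among the 5 most like FBP1-like. Outside their own set, the lists of gene341, gene342 and gene343 all held kelch-like protein diablo (gene345), an adaptor of ubiquitin ligases in Drosophila (r = 0.868, 0.927 and 0.946), and general odorant-binding protein 99a-like (gene7161), a small secreted carrier (0.91, 0.923 and 0.913). The third gene was one of no informative product for gene341 (gene5808, 0.870) and development-specific 25 kDa protein (gene5358) for gene342 and gene343 (0.888 and 0.909). For LSP2 4 of the 5 genes had no informative product and the other was ficolin-2-like (gene7286, 0.887). For gene890 they were 4-coumarate--CoA ligase-like 6 (gene8863, 0.976), trypsin-like (gene1626, 0.954), serine protease snake-like (gene4925, 0.950), a gene of no informative product, and arylphorin subunit C223-like (gene2478, 0.930), a hexamerin.

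The IDs gene341, gene342 and gene343 follow each other in the table, as do gene12529 and gene12530. Gene345, the kelch-like gene that reached 5336 ± 2039 TPM in 7-d-old larvae, is 2 IDs from gene343, and the gene between them, for DNA polymerase eta, had r = -0.41 with gene343. Gene12531, next to gene12530 and named for a peroxisome biosynthesis protein, had r = 0.831 with it. Gene890 stands between the cell death genes Grim and W, with r = -0.11 and -0.12. In the RefSeq annotation of the assembly idZeuCucr1.2, 5 of the 7 genes were found by their locus name, and gene342, gene343, gene890 and gene12530 lie on chromosome 4 and gene6969 on chromosome 2, with 1 other gene between gene342 and gene343. The build of the deposited table is not given in the sources used here, so no coordinates are printed.

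Genes of related roles were taken from 5 lists by product, and called genes are counted beside the share of all genes called in the same step and direction, which was 1.36% higher from 3-d-old to 7-d-old larvae, 12.2% higher and 4.95% lower from 7-d-old larvae to 1-d-old pupae, and 7.17% higher and 4.98% lower from day 1 to day 5 of the pupa. The medians over all genes were -0.01, 0.67 and -0.09 in these 3 steps. Of the 4 other hexamerin family genes 3 were tested, and only the arylphorin gene2478 was called from 3-d-old to 7-d-old larvae (higher) and from there to 1-d-old pupae (lower), with medians over the 3 of 1.33 and -1.66. Its larval libraries held 10.19, 61.37, 0.7 and 52.19 TPM on day 3, 1992, 1840.5, 1794 and 1754 TPM on day 7 and 11.6 to 27.7 TPM on day 1 of the pupa (log2 fold changes 6.86 and -6.55, SE 0.67, adjusted p = 4.38e-11 and 9.08e-12). The other tested members are phenoloxidases, which make melanin and are related to hexamerins in sequence. On day 5 of the pupa gene2478 stood at 7.13 ± 2.77 TPM.

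Of the 24 genes of the ecdysone cascade, the receptors and transcription factors that relay the hormone, 1 was called higher from 3-d-old to 7-d-old larvae and 9 from 7-d-old larvae to 1-d-old pupae. The background for the second step was 12.2% of all genes, and the median of the list was 1.59 against 0.67. With median-of-ratios scaling the 9 became 2, gene1483 and gene6456. The 3 called ones of highest level were gene4395 (broad-complex, from 712 ± 114 to 3789 ± 240 TPM, log2 fold change 2.42), gene6455 (broad-complex, from 20.2 ± 16.1 to 104 ± 9.16 TPM, 2.59) and gene1483 (ecdysone-induced protein 78C, from 0.483 ± 0.932 to 50.4 ± 12.4 TPM, 5.25), with adjusted p of 1.65e-23, 6.71e-14 and 4.12e-21. With that scaling gene4395 was at 0.99 and gene6455 at 1.21, and neither was called, while gene1483 was at 4.57 and called. From day 1 to day 5 of the pupa 3 of the 24 were called lower (4.98% of all genes), all of them broad-complex genes (gene4395, gene6455 and gene6456, log2 fold changes -2.41, -4.83 and -4.77, adjusted p = 3.04e-23, 1.89e-22 and 3.82e-24; gene4395 was not called with median-of-ratios scaling, at -1.86), and 1 was called higher, the receptor gene HR38 (gene13483), which was listed at 0 on day 1 and stood at 35.2 TPM on day 5. FBP1 and FBP1-like fell between the same days.

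Of 9 genes of tissue remodelling, 4 were called higher from 7-d-old larvae to 1-d-old pupae, beside 12.2% of all genes and also with median-of-ratios scaling, and the list's median was 1.92 against 0.67. They included matrix metalloproteinase-14 (gene13006), an enzyme that cuts extracellular matrix, from 20.8 ± 6.71 to 494 ± 20.4 TPM (log2 fold change 4.56, SE 0.19, adjusted p = 3.05e-24), and autophagy-related protein 13 (gene7930), which helps start autophagy, from 6.10 ± 1.21 to 100.4 ± 10.1 TPM (3.85, SE 0.10, adjusted p = 9.37e-31). From day 1 to day 5 of the pupa 3 of the 9 were called lower (4.98% of all genes), 2 of them with median-of-ratios scaling, and gene13006 stood at 83.5 ± 6.13 TPM. Of 6 cathepsins, lysosomal proteases, 1 was called higher (12.2% of all genes) and 1 lower (4.95%) from 7-d-old larvae to 1-d-old pupae, with a median of 0.50. A cathepsin L1 (gene9382), the 1 member called from 3-d-old to 7-d-old larvae (higher, 2.72, SE 0.14, adjusted p = 6.14e-20), fell from 794 ± 97.2 to 5.96 ± 1.14 TPM (-6.84, SE 0.14, adjusted p = 1.11e-35), a step over which the 4 LSP1-like genes and LSP2 were also called lower. Cathepsin L (gene4689) went up, from 295 ± 58.7 to 1528 ± 160 TPM (log2 fold change 2.38, SE 0.14, adjusted p = 6.67e-19), and with median-of-ratios scaling it was not called.

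Of 16 carrier proteins of fat body and haemolymph, 4 were called higher (12.2% of all genes) and 1 lower (4.95%) from 7-d-old larvae to 1-d-old pupae, and 0 higher and 3 lower with median-of-ratios scaling, so the balance of this list depended on the scaling. Transferrin (gene2717), the iron carrier of haemolymph, rose from 145.1, 590.1, 156.7 and 194.3 TPM to 2119, 2265, 1862 and 2120.0 TPM (log2 fold change 3.20, SE 0.56, adjusted p = 2.1e-06). The median of the list was 1.09 against 0.67 over all genes, and with that scaling gene2717 was not called. The highest library of gene2717 in 7-d-old larvae was replicate 2, as for FBP1 and FBP1-like. Replicate 2 was the highest for 6 of the 16 carriers and replicate 4 for 8. Among all tested genes with a single highest library, 53.0% were highest in replicate 2. Apolipoprotein D-like (gene3187), a lipocalin, fell from 261 ± 91.1 to 0.898 ± 0.274 TPM (-7.05, SE 0.22, adjusted p = 2.77e-28).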

How the data were processed

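RNA was extracted from pools of whole melon flies at 13 stages (4 libraries each) and sequenced as paired-end reads. Reads were trimmed by the authors (SeqPrep, Sickle) and aligned (HISAT2 2.1.0), further genes were assembled (StringTie), and RSEM 1.3.1 gave the TPM deposited by the authors. The genome build is not given in the sources used here. The deposited table holds 1 TPM column per library, printed to 2 decimals and adding up to 999999 to 1000001, and a column of gene length in nucleotides. TPM keep no read depth, so the precision of a single value is not known beyond the spread of 4 libraries, and TPM being shares, abundant genes lower all others in their library.

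The members and lists were chosen with earlier results of these data known. All genes whose description contains larval serum protein or fat-body protein 1 are named in every comparison. For each of them the 5 genes of highest Pearson r are taken, among tested genes with a stage mean of at least 10 TPM, and from each of 5 lists up to 3 called members of highest mean TPM in the comparisons between 3-d-old larvae and 5-d-old pupae. The text names part of the latter, and the genes next to the members in the table and the values of gene6455, gene4395 and gene4685 in single 7-d-old larva libraries were chosen after values were seen.

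limma 3.58.1 in R 4.3.3 was fitted to log2(TPM + 1) of 17097 genes, those that exceeded 0.1 TPM in 4 or more libraries, with 1 mean per stage over 52 libraries and moderated variances (trend, robust). P-values were adjusted by Benjamini-Hochberg within each of 15 comparisons, and in 2 further tests of the change with age between the sexes. Thresholds were those of the study (adjusted p 0.05, log2 fold change 2). The count test of the study was not used because the values are not counts. The fit was tested on simulated data. Summaries used pandas 2.3.3, numpy 2.4.6 and scipy 1.17.1 under Python 3.11.15, and plots used matplotlib 3.10.9. Alternatives covered the pseudocount (0.1), the filter, median-of-ratios size factors (6902 genes), the fold threshold (1), the replicate number, the compared stages alone, the moderation, the 6 libraries in which few reads mapped, the read class of the 7-d-old larvae and leaving out each library. Read depth, sequences and coordinates were not analysed here.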

Additional observations from a re-analysis of the deposited data

Results flagged for a closer look

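In each of 90 groups of 4 libraries of a stage and a gene the highest and lowest library were compared with the others by Dixon's test, and 6 libraries stood apart. A chance rate of about 1 in 20 groups holds for normally distributed values. TPM near 0, printed to 2 decimals, are not such values, so that rate is no yardstick for the 6 flags. Replicate 2 of the 7-d-old larva held 251.35 TPM of FBP1, against 0.04 to 5.53 TPM in the other 3. Replicate 3 of the 1-d-old female held 64.09 TPM of FBP1, against 25.6 to 31.68 TPM. Replicate 3 of the egg held 35.66 TPM of FBP1-like, against 2.2 to 3.08 TPM. For gene890 the values were 0.05 TPM in replicate 3 of the 5-d-old female, 0.02 TPM in replicate 3 of the 9-d-old female and 0.04 TPM in replicate 2 of the 5-d-old male, each against 0 in the other 3 libraries. A group with 3 libraries at 0 is flagged whatever the value above 0 in the remaining library.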

How the results depend on the processing

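No called difference of the 7 storage protein genes changed its sign under the alternatives run. The balance over all genes and over the carriers did change with the scaling. With median-of-ratios size factors in place of TPM the share of higher among all calls was 60.4% (37.3%) from egg to 1-d-old larva, 45.3% (29.2%) from there to 3-d-old larvae, 30.2% (71.2%) from 7-d-old larvae to 1-d-old pupae, 75.4% (59%) from day 1 to day 5 of the pupa, 64.6% (86.7%) and 5.11% (19.1%) from day 1 to 5 and 5 to 9 in females, 34.9% (45.2%) and 31.9% (59.7%) for females against males on days 5 and 9, and 64.9% (80.3%) and 10.4% (29.4%) for the change with age between the sexes to day 5 and from there to day 9. The level of a gene at its peak depended on the scaling. With median-of-ratios size factors the means were 16584 (gene341), 37675 (gene342), 59989.7 (gene343), 21696 (LSP2) and 60.0 (gene890) in 7-d-old larvae and 6614 (FBP1) and 11939 (FBP1-like) in 1-d-old pupae. That scaling also moved counts of the storage protein genes, to 0 lower from egg to 1-d-old larva (1 with TPM) and 3 higher from day 1 to day 5 of the pupa (1 with TPM). It further gave 4 higher from 1-d-old to 3-d-old larvae (3 with TPM) and 4 lower from day 1 to day 5 in females (3 with TPM). From 7-d-old larvae to 1-d-old pupae it gave 2 lower for the other hexamerins (1), 0 higher (4) and 3 lower (1) for the carriers, 2 higher (9) for the ecdysone genes and 0 higher (1) for the cathepsins. It gave 1 ecdysone gene lower from 3-d-old to 7-d-old larvae (0), and from day 1 to day 5 of the pupa 2 ecdysone genes higher (1) and 0 carriers lower (1). For the other alternatives only the larger moves of a count are listed. With a pseudocount of 0.1, 3 storage protein genes were lower from egg to 1-d-old larva, 5 higher from 1-d-old to 3-d-old larvae (3) and 1 lower in 9-d-old females than males (0). With a fold threshold of 1 the counts were 2 lower from egg to 1-d-old larva, 4 higher from day 1 to day 5 of the pupa, 5 lower from day 1 to day 5 in females (3) and 1 higher from day 5 to day 9 in females (0). Leaving out libraries in turn, the count from egg to 1-d-old larva ran from 0 to 1, 0 without egg replicate 3. Of the 5 genes of like pattern, 3 were kept for gene341, gene6969 and gene890 with r over stage means, and 1 for gene890 with a pseudocount of 0.1.

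With the replicate number as a block the count of storage protein genes called higher from 3-d-old to 7-d-old larvae was 7, and no call on these genes changed. Over all stages together, libraries of the same number did not deviate together (median r -0.002 over 312 pairs), and 13 of 52 libraries correlated best with their own number. Pairing between particular stages was not tested. The lone library left in the 9-d-old pupa without those in which few reads mapped was assumed to vary like the other groups. TPM limit what can be said of genes near 0, such as gene890 in adults.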

Other observations

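The genes patterned most like FBP1 were close to 0 in 3-d-old larvae and peaked on day 1 of the pupa. They were chosen by their correlation with FBP1 over these same libraries, so a likeness in stages follows from the choice. Ficolin-1-like (gene1905) held 0.145 ± 0.09 TPM in 3-d-old larvae, 4430.3 ± 1078 TPM on day 1 of the pupa and 508 ± 50.4 TPM on day 9 of the pupa (SD, n = 4). The cytochrome P450 gene7153 held 0.0225 ± 0.0171, 302 ± 55.6 and 30.5 ± 11.3 TPM at the same stages. By day 9 of adult life both were at or below 1.42 TPM on average in each sex.

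Ficolin-2-like (gene7286), the gene with an informative product most like LSP2, had its highest means in other stages than LSP2. It stood at 2900.4 ± 396 TPM on day 1 of the pupa and 4874 ± 814 TPM in 9-d-old females, against 1109.9 ± 392 and 4723 ± 1085 TPM for LSP2 (gene6969). In 7-d-old larvae it held 330.3 ± 271 TPM, while LSP2 held 11821 ± 1189 TPM. These values are descriptions without a test.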
